A study of Marchantia polymorpha subsp. ruderalis with 24 samples.

Results

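MpLOX14 (Mp8g12930) is a lipoxygenase gene of the liverwort Marchantia polymorpha, and it is 1 of 20574 genes in the deposited count table. Its level is given in CPM, counts-per-million of the library after TMM scaling. It was selected on its measured values in these same libraries: a wide 24 h swing with like profiles on both days sampled. It held rank 6 by size of the fitted 24 h rhythm among 296 genes with a symbol and a rhythm call whose mean reached 10 CPM and whose day profiles correlated at 0.8 or more. The genes on either side of it in that order were MpKOL3 with a fitted swing of 4.29 fold and MpPP2C_F3 with 3.60 fold, against 3.83 fold for MpLOX14. The rhythm of MpLOX14 is therefore given as a description without a test. The planned tests of MpLOX14 used contrasts between the days, which did not choose the gene. Differences between such contrasts were added after the values were seen, and their p-values are not independent of the choice.

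All libraries came from wild-type plants of the male accession Takaragaike-1 (Tak-1), with no mutant, transgene or chemical in any group. Plants grew from gemmae, the clonal propagules of the thallus, on agar at 20 °C, with light and dark alternating every 12 h, before they were kept in constant light. The 8 groups, of 3 libraries each, are the times of sampling. The first was taken 24 h after the lights stayed on, the last at 66 h, and the interval was 6 h. The label for the tissue is young thallus, while the extraction text speaks of gemmae. The sources used here do not give plant age, the hour of the cycle at which the plants were moved or whether replicates were separate cultures, so p-values measure the spread between these libraries, which may be technical. The times 24 to 42 h are called the first day here and 48 to 66 h the second.

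Lipoxygenases add molecular oxygen to polyunsaturated fatty acids and give fatty acid hydroperoxides. In land plants these feed branches that lead to oxylipins, among them the 12-oxo-phytodienoic acid route, which starts with allene oxide synthase of the CYP74 family of cytochromes P450. In M. polymorpha the hormone sensed by the receptor COI1 is dinor-OPDA, a relative of that acid, in place of the jasmonoyl-isoleucine of flowering plants, and it acts in wound and defence responses by releasing MYC factors from the repressor JAZ. Desaturases act before lipoxygenase, since they put the double bonds into the fatty acids.

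The 24 libraries held 14929708 to 59194999 counts, and MpLOX14 had 1973 to 24714 counts in each. On the log2 scale the library total correlated with the CPM of MpLOX14 at -0.32, a relation that was not tested. Libraries of the same time correlated at 0.956 or more over the tested genes. In 3 libraries, replicate 3 of 24, 30 and 66 h, a single gene, MpVg01240, took 4.27% to 7.22% of the counts, against at most 2.39% in the other 21. Of 12 marker genes looked up for other cells of the thallus, 8 were found by symbol. The germline gene MpBNB and the rhizoid genes MpRSL1, MpRSL2 and MpRSL3 were not found, so rhizoids were not checked. The sperm regulator MpDUO1 had a mean of 0.575 CPM and the protamine gene MpPRM 11 counts in all. The summed level of 4 oil body genes lay between 34.2 and 59.7 CPM over all libraries and that of 2 gemma cup genes between 48.8 and 78.3 CPM. These sums correlated with MpLOX14 at -0.23 and -0.16 over the 24 libraries. Each sum rested mostly on a single gene, MpC1HDZ (mean 30.8 CPM) for oil bodies and MpKAR (56.8 CPM) for gemma cups. MpC1HDZ was itself called rhythmic (swing of 0.57 ± 0.12 on the log2 scale, edgeR adjusted p = 0.0047), and no other tested marker was. The other gemma cup gene, MpGCAM1, varied widely between libraries of the same time, with 11.8 ± 12.4 CPM (SD, n = 3) at 48 h. In whole tissue, fewer cells of a type and less RNA per cell cannot be told apart.

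MpLOX14 was lowest at 24 h and highest at 36 h, with a second and lower maximum at the end of sampling. At 24 h the libraries had 94.8, 98.1 and 108 CPM of MpLOX14, and at 30 h 197, 181 and 192 CPM. At 36 h they had 643, 656 and 552 CPM, and at 42 h 479, 557 and 547 CPM. On the first day the groups were apart: the lowest of the 6 libraries of 36 and 42 h had 479 CPM, and the highest of the 6 of 24 and 30 h had 197 CPM.

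The second day again ran from a low pair of times to a high pair, within a narrower range. Within both pairs the order of the means was the reverse of that on the first day. The libraries within each pair of the second day overlapped. At 48 h the libraries had 252, 217 and 248 CPM of MpLOX14, and at 54 h 201, 239 and 192 CPM. At 60 h they had 368, 414 and 314 CPM, and at 66 h 418, 360 and 471 CPM. The groups were again apart, since 314 CPM was the lowest value of 60 and 66 h and 252 CPM the highest of 48 and 54 h. Ordered by mean, the times ran 24, 30, 54, 48, 60, 66, 42 and 36 h. Neighbours in this order whose libraries overlapped were 30 and 54 h, 54 and 48 h, 60 and 66 h, and 42 and 36 h. The libraries of 24 and 30 h, of 48 and 60 h, and of 66 and 42 h did not overlap.

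**Figure D1:**
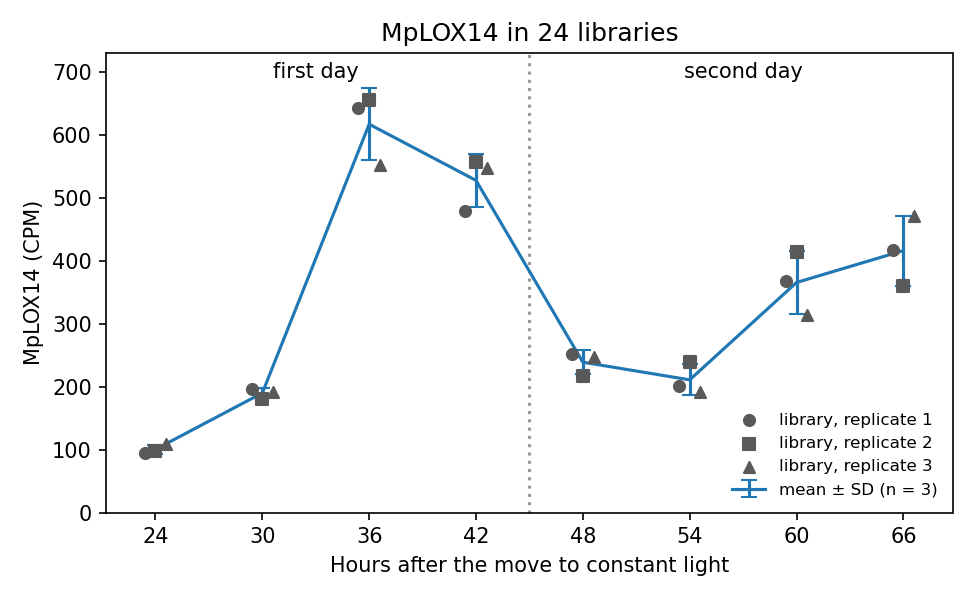
MpLOX14 in CPM (y axis) against hours after the move to constant light (x axis), with a point for each library and the mean ± SD of the 3 libraries of a time. The 6 libraries of 36 and 42 h lie at 479 to 656 CPM, those of 60 and 66 h at 314 to 471 CPM, and the other 12 at 94.8 to 252 CPM.

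As a ratio of time means, the swing was 6.14 fold on the first day (617 ± 57 CPM, SD, n = 3, at 36 h against 100.4 ± 7.1 at 24 h) and 1.97 fold on the second (416 ± 56 CPM at 66 h against 211 ± 25 at 54 h). On the log2 scale the time means covered 2.62 on the first day and 0.98 on the second. Times 12 h apart differed by 6.14 fold for 36 over 24 h, 2.78 fold for 42 over 30 h, 1.53 fold for 60 over 48 h and 1.97 fold for 66 over 54 h. The lowest mean stood at 24 h on the first day and 54 h on the second, and the highest at 36 and 66 h. Since 48 and 54 h overlapped, and 60 and 66 h overlapped, the second low and high cannot be placed at 1 time.

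A 24 h cosine with a linear drift, which holds the swing equal on both days, gave a peak to trough difference of 1.94 ± 0.24 (SE) on the log2 scale, or 3.83 fold. Its peak lay at 14.6 ± 0.44 h and its trough at 2.56 h, on a clock of 24 h that starts at the move. The observed mean of MpLOX14 lay 0.74 below this curve at 24 h and 0.52 below it at 60 h on the log2 scale. It lay 0.43 above the curve at 48 h and 0.32 above it at 36 h, so the curve ran above the low of the first day and the high of the second. With both a linear and a day term in the model the difference was 1.72, and the peak lay at 14.5 h. The SD of log2 CPM of MpLOX14 within times was 0.14, against a median of 0.15 over the 9385 tested genes with a mean of 10 CPM or more.

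**Figure D2:**
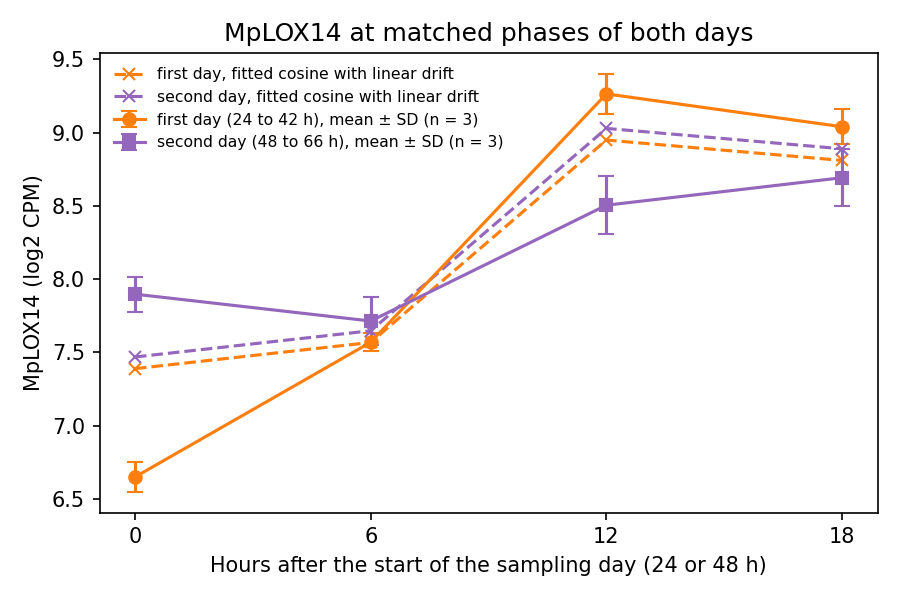
Mean ± SD (n = 3) of MpLOX14 in log2 CPM (y axis) against hours from the start of each sampling day (x axis), with the fitted cosine with linear drift as dashed lines. The days cross between 6 and 12 h: the second lies above the first at the low phases and below it at the high ones, with log2 swings of 0.98 and 2.62.

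Comparison of times 24 h apart asked whether the level of MpLOX14 had changed after a further 24 h of constant light. Such times are called equal phases here, which takes the period in constant light as 24 h. The period was not estimated, and a shift of phase between the days was not tested apart from a change of level. The level rose at the phase of the first low and fell at the phase of the first high. From 24 to 48 h MpLOX14 rose by 1.25 ± 0.12 (SE) on the log2 scale, or 2.38 fold, from 100.4 to 239 CPM (edgeR quasi-likelihood test, adjusted p = 3.0e-06), and each library of 48 h lay above each of 24 h. In all, 8.26% of the tested genes were called higher at 48 than at 24 h and 7.22% lower. From 36 to 60 h MpLOX14 fell by 0.75 ± 0.12 on the log2 scale, from 617 to 365 CPM (edgeR adjusted p = 4.6e-04), and each library of 60 h lay below each of 36 h. Here 3.66% of the tested genes were called lower and 4.83% higher. The difference between these changes was called for 1.80% of the tested genes and below 0 for 0.826%, MpLOX14 among them, and the like contrast of the other phases for 0.479%; both contrasts were chosen after the values were seen, and their values stand in the closing section.

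The other phases showed no call. From 30 to 54 h the log2 difference was 0.15 ± 0.12 with overlapping libraries (edgeR adjusted p = 0.467, interval at 95% confidence from -0.077 to 0.38), while 4.07% of the tested genes were called higher and 4.48% lower. From 42 to 66 h it was -0.34 ± 0.12 (edgeR adjusted p = 0.131, interval from -0.57 to -0.11). The intervals are not adjusted for the number of genes, and the unadjusted p of this contrast was 0.0076 (edgeR quasi-likelihood test). The libraries of 42 and 66 h did not overlap, with 479 CPM as the lowest of 42 h and 471 CPM as the highest of 66 h, and 1.01% of the tested genes were called higher and 1.78% lower there. Averaged over the 4 phases, the second day minus the first was 0.08 ± 0.06 on the log2 scale (edgeR adjusted p = 0.336, interval from -0.038 to 0.19). The mean CPM had the other sign, with 308 CPM on the second day and 359 on the first. The calls from 24 to 48 h and from 36 to 60 h held in all 32 other settings tried, with adjusted p from 1.7e-22 to 0.0013 and from 6.3e-08 to 0.0084.

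Among the other lipoxygenase genes, MpLOX16 and MpLOX10 had their lowest mean at 24 h and their highest at 36 h, as MpLOX14 did. Of 15 such genes with a symbol 14 passed the filter on low counts, and 4 of these were called rhythmic, or 28.6% against 18.7% of all tested genes. The fitted swing had a median of 0.70 on the log2 scale in these 14 genes and of 0.26 in all tested genes. These medians were not matched for level. The 14 include MpLOX6 (2.19 ± 1.2, mean 0.335 CPM) and MpLOX8 (1.73 ± 0.72, mean 1.45 CPM), wide but uncalled swings of weak genes. The files name no substrate or product, so no step is assigned to any single gene. Levels of different genes are not compared, because no transcript length of the counted annotation was at hand.

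MpLOX16 (Mp2g16000) had the widest fitted swing of the family, 4.06 ± 0.54 on the log2 scale (edgeR adjusted p = 1.9e-05), with its maximum at 14.7 ± 0.47 h. The libraries of 24 h held 8, 0 and 13 counts of it, and those of 36 h held 278, 184 and 309. Its mean was 0.163 ± 0.14 CPM at 24 h (SD, n = 3) and 12.9 ± 1.6 at 36 h. On the second day it had 1.57 ± 0.36 at 54 h and 7.3 ± 0.89 at 66 h. Like MpLOX14 it rose from 24 to 48 h, by 3.24 ± 0.47 (adjusted p = 1.2e-04, edgeR), and fell from 36 to 60 h, by 1.51 ± 0.36 (adjusted p = 0.0132). With so few counts at 24 h the size of the rise is uncertain.

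MpLOX10 (Mp8g09050) followed the same course. Its libraries had 22.7, 27.8 and 24.0 CPM at 24 h, against 119, 141 and 105 CPM at 36 h. The later pair of times lay closer, with 46.2, 52 and 57.5 CPM at 48 h and 63.1, 58.4 and 80.8 CPM at 60 h. The fitted swing was 1.45 ± 0.25 (edgeR adjusted p = 4.2e-04), with the maximum of the curve at 13.6 h. It rose by 1.07 ± 0.18 from 24 to 48 h (adjusted p = 3.9e-04, edgeR) and fell by 0.85 ± 0.17 from 36 to 60 h (adjusted p = 0.0049). On the second day its libraries of 60 and 66 h, from 46.7 CPM, overlapped those of 48 and 54 h, up to 58.4 CPM. The rhythm calls of MpLOX16 and MpLOX10 were lost when a day term stood beside the linear one (adjusted p = 0.167 and 0.232, edgeR) and in none of the other 35 settings, where adjusted p started at 3.1e-08 and 1.7e-05.

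MpLOX2 (Mp2g23380) had similar lows and highs on both days. Its lows were 85.1 ± 5.2 CPM (SD, n = 3) at 30 h and 92.4 ± 8.3 at 54 h, and its highs 152 ± 2.8 CPM at 42 h and 155 ± 22 at 66 h. On the second day its libraries of 60 and 66 h, from 122 CPM, overlapped those of 48 and 54 h, up to 129 CPM. Its fitted swing was 0.86 ± 0.10 with a maximum at 16.2 h (edgeR adjusted p = 5.0e-06), and neither the contrast of 48 and 24 h (0.29 ± 0.13, adjusted p = 0.127) nor that of 60 and 36 h (-0.14 ± 0.13, adjusted p = 0.548) was called. MpLOX4 (Mp5g21680) ran at another phase, with a swing of 0.96 ± 0.15 (edgeR adjusted p = 1.1e-04) that was highest at 8.64 ± 0.66 h. Its mean was highest at 30 h, with 55.7 ± 6.3 CPM, and lowest at 66 h, with 21.1 ± 2.6.

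**Figure D3:**
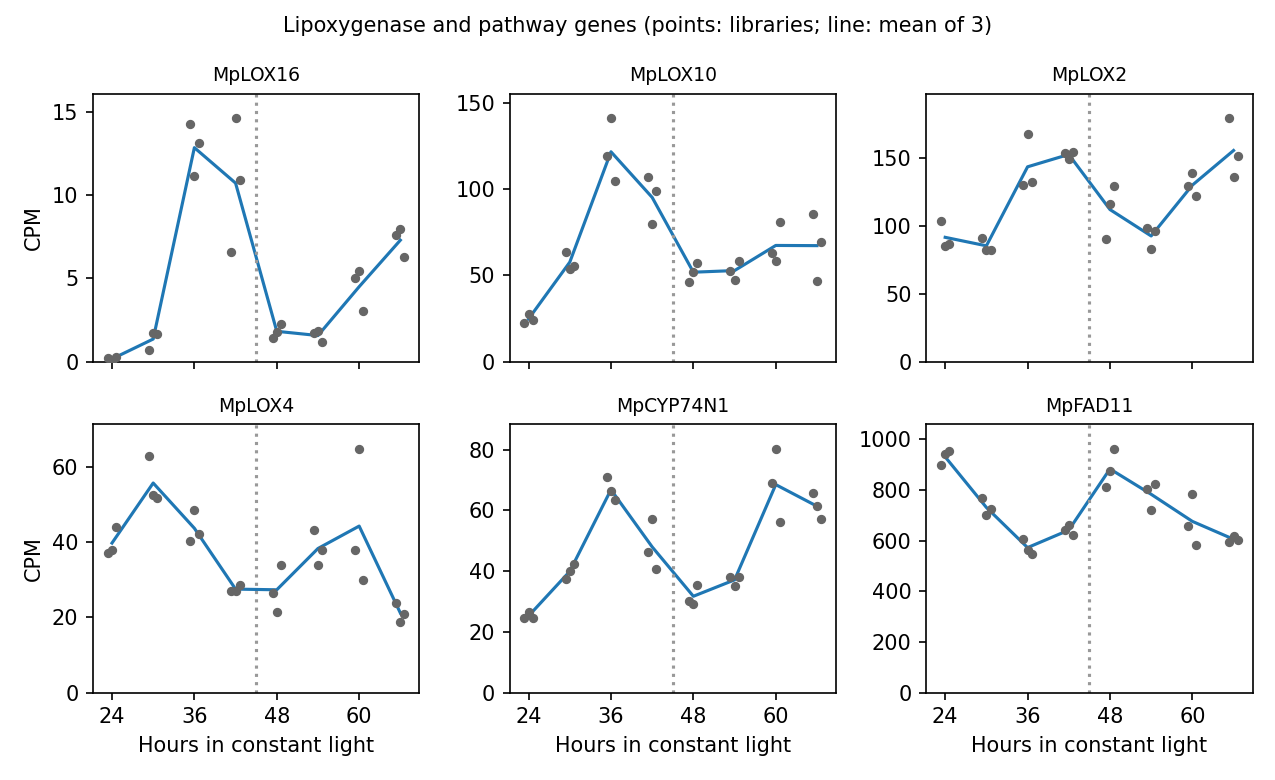
CPM (y axis) against hours in constant light (x axis) for 4 lipoxygenase genes, the CYP74 gene MpCYP74N1 and the desaturase gene MpFAD11, with a point for each library and a line through the means of 3. MpLOX16 and MpLOX10 are lowest at 24 h and highest at 36 h, MpLOX4 is highest at 30 h, and MpFAD11 is highest at 24 h and lowest at 36 h.

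The other 10 tested lipoxygenase genes were not called rhythmic, with fitted swings from 0.18 for MpLOX11 to 2.19 ± 1.2 for MpLOX6, which had 0.335 CPM on average. MpLOX1 (0.87 ± 0.30, adjusted p = 0.104, edgeR) and MpLOX12 (0.51 ± 0.19, adjusted p = 0.155) gained a call without a drift term, with day means as drift, and without replicate 3 of 48 h (adjusted p = 0.0361 and 0.0166), and MpLOX1 also with a 26 h period. Adjusted p ranged from 0.0040 to 0.578 for MpLOX1 and from 0.0166 to 0.772 for MpLOX12 over all settings. MpLOX8 (1.73 ± 0.72) was called without replicate 1 of 24 h (adjusted p = 0.0073, in a range up to 0.624). MpLOX15 (Mp2g23370) did not pass the filter, with 44 counts over 12 libraries. Its identifier is next to that of MpLOX2, and those of MpLOX6, MpLOX7 and MpLOX8 lie close together. Close copies may share reads, and the sources used here give no counting rule.

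Between the days 1 other lipoxygenase gene rose and 3 fell, of 14 tested, while 18.3% of all tested genes were called higher and 16.3% lower on the second day. MpLOX1 (Mp2g00660) rose by 0.58 ± 0.18 on the log2 scale (edgeR adjusted p = 0.0155), a call that was lost when the 3 MpVg01240-rich libraries were left out (adjusted p = 0.0541, the highest of a range that started at 0.0035). MpLOX11 (Mp8g08690) fell by 0.46 ± 0.07 (edgeR adjusted p = 8.0e-05), MpLOX4 fell by 0.36 ± 0.10 (adjusted p = 0.0077) and MpLOX3 (Mp3g06610) fell by 0.34 ± 0.11 (adjusted p = 0.0212). The median over the 14 genes was -0.11, against 0.01 over all tested genes. MpLOX14, MpLOX16 and MpLOX10 had no call in this contrast. MpLOX1 was also the only other gene of the family, beside MpLOX16 and MpLOX10, with a call from 24 to 48 h, a rise of 1.09 ± 0.36 (adjusted p = 0.0456, edgeR).

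Genes were placed before or after lipoxygenase by symbol alone. Among them the CYP74 gene MpCYP74N1 was highest at 36 and 60 h, and the desaturase gene MpFAD11 was highest at 24 and 48 h. Of 18 tested pathway genes 6 were called rhythmic, or 33.3% against 18.7% of all tested genes, and the fitted swing had a median of 0.22 against 0.26. Of the CYP74 genes, placed after lipoxygenase, MpCYP74N1 (Mp3g21350) is also named MpAOS1 for allene oxide synthase in the RefSeq table. It had a swing of 1.25 ± 0.10, highest at 13.3 ± 0.30 h (edgeR adjusted p = 2.7e-08). Its libraries had 24.6, 26.4 and 24.7 CPM at 24 h against 70.8, 66.2 and 63.4 at 36 h. They had 30.3, 29.3 and 35.6 CPM at 48 h against 69.0, 80.3 and 56.1 at 60 h, so the highs of both days overlapped. The log2 difference between 60 and 36 h was 0.04 ± 0.12 (adjusted p = 0.894, edgeR), where MpLOX14 had -0.75. Whether the genes differ in this was not tested. The other such gene, MpCYP74N2 (Mp5g16260) or MpAOS2, was not called rhythmic (0.19 ± 0.12, adjusted p = 0.544, edgeR).

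Of 12 desaturase genes placed before lipoxygenase by a FAD symbol, 5 were called rhythmic, against 18.7% of all tested genes. Their fitted maxima lay between 1.84 h and 8.57 h. Whether each product acts on fatty acids used by lipoxygenase was not checked. MpFAD11 (Mp5g20700), with a swing of 0.62 ± 0.09 (edgeR adjusted p = 7.4e-05), had its maximum at 1.84 h. Its mean was 931 ± 30 CPM at 24 h (SD, n = 3), 572 ± 31 at 36 h and 883 ± 76 at 48 h. MpFAD5 (Mp3g10660) had a swing of 0.52 ± 0.07 (adjusted p = 4.3e-05, edgeR) and MpFAD10 (Mp4g24020) of 0.98 ± 0.16 (adjusted p = 1.9e-04), with maxima at 4.26 and 3.61 h. MpFAD3 (Mp2g24510, 0.42 ± 0.08, adjusted p = 9.0e-04) was highest at 3.60 h and MpFAD4 (Mp3g06040, 0.35 ± 0.08, adjusted p = 0.0094) at 8.57 h. Between 36 and 60 h, where MpLOX14 fell, MpFAD10 rose by 0.97 ± 0.11 (adjusted p = 3.9e-05, edgeR), from 405 ± 19 to 793 ± 127 CPM (SD, n = 3), and MpFAD3 rose by 0.35 ± 0.07 (adjusted p = 0.0070). When a day term stood beside the linear one, the rhythm calls of MpFAD11 (adjusted p = 0.222, edgeR), MpFAD5 (adjusted p = 0.112), MpFAD10 (adjusted p = 0.454) and MpFAD3 (adjusted p = 0.736) were lost, and with a 22 h period those of MpFAD3 (adjusted p = 0.0657) and MpFAD4 (adjusted p = 0.0753). Over all 36 settings the adjusted p started at 2.7e-09, 1.8e-10, 4.5e-08 and 3.9e-06 for these 4 genes in turn and at 8.2e-04 for MpFAD4.

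Of the genes for hormone sensing, the receptor gene MpCOI1 (0.21 ± 0.07, adjusted p = 0.0920, edgeR), the repressor gene MpJAZ (0.17 ± 0.07, adjusted p = 0.256) and MpNINJA (0.26 ± 0.08, adjusted p = 0.0518), whose product links JAZ proteins to co-repressors in Arabidopsis, were not called rhythmic. MpNINJA gained a call in 9 of 36 other settings (adjusted p from 0.0182 to 0.233, edgeR among the tools) and MpCOI1 in 1, without replicate 3 of 54 h (from 0.0271 to 0.295). Between the days 4 of the 18 pathway genes rose and 4 fell, while 18.3% of all tested genes were called higher and 16.3% lower, and the number of rises ran from 2 to 5 over the other settings. MpFAD10 rose by 0.45 ± 0.06 (adjusted p = 5.0e-06, edgeR) and MpFAD3 by 0.15 ± 0.04 (adjusted p = 0.0038). MpCYP74N2 (0.21 ± 0.08, adjusted p = 0.0495) and the peroxisomal import receptor gene MpPEX5 (0.14 ± 0.05, adjusted p = 0.0456) lost the call in 19 and 21 of 31 other settings, with adjusted p from 0.0191 to 0.180 and from 0.0061 to 0.0951. The falls were those of MpFAD4 by 0.35 ± 0.06 (adjusted p = 8.0e-05), MpFAD1 by 0.24 ± 0.07 (adjusted p = 0.0117), MpFAD8 by 0.24 ± 0.08 (adjusted p = 0.0244) and MpJAZ by 0.19 ± 0.05 (adjusted p = 0.0088). The call of MpFAD8 was lost without replicate 2 of 36 h (adjusted p = 0.0536) or replicate 1 of 42 h (adjusted p = 0.0549). MpCYP74N1 (0.15 ± 0.06, adjusted p = 0.0502, edgeR) had no call but gained it in 8 of 31 other settings (adjusted p from 0.0097 to 0.107). MpFAD6 (-0.20 ± 0.09, adjusted p = 0.0823, edgeR) gained a call in 3 (from 0.0167 to 0.170).

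As a description of likeness, the Pearson correlation of log2 CPM with MpLOX14 over the 24 libraries was 0.959 for MpLOX16, 0.900 for MpLOX10 and 0.816 for MpLOX2. For the other 11 tested lipoxygenase genes it ran from -0.51 for MpLOX9 to 0.68 for MpLOX1. It was 0.837 for MpCYP74N1, -0.81 for MpFAD5 and -0.82 for MpFAD11, and 9 of the 12 desaturase genes were below 0. The median over 1803 other genes with a symbol and a mean of 10 CPM or more was itself below 0, at -0.057. All these values share libraries and scaling, and the 24 libraries stand for only 8 times.

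**Figure D4:**
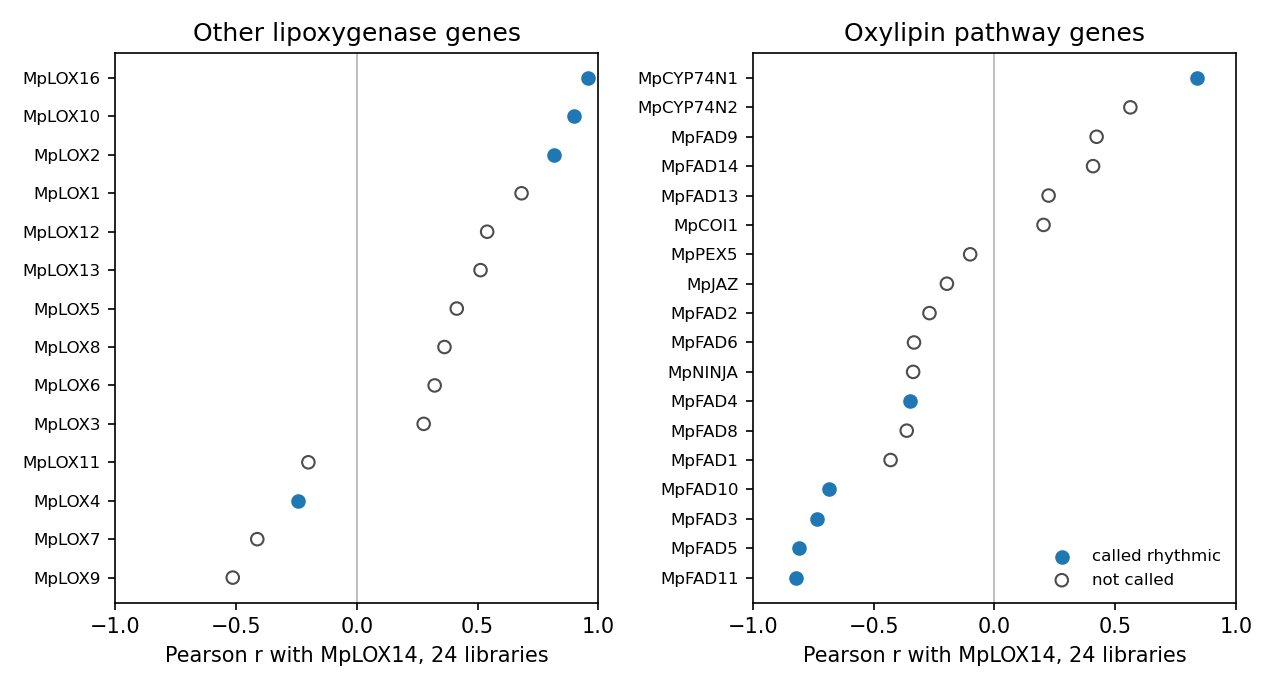
Pearson correlation with MpLOX14 over 24 libraries of log2 CPM (x axis) for each tested gene of the lipoxygenase and oxylipin pathway lists (y axis), with filled points for genes called rhythmic. MpLOX16, MpLOX10, MpLOX2 and MpCYP74N1 lie above 0.8, and MpFAD5 and MpFAD11 at -0.81 and -0.82.

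Of 1803 other genes with a symbol and a mean of 10 CPM or more, 30 had a correlation of 0.8 or more with MpLOX14. The most alike was the dirigent gene MpDIR17 (Mp7g06220) at 0.913, followed by the polyphenol oxidase gene MpPPO42 (Mp5g19980) at 0.905 and the glutathione S-transferase gene MpGST34 (Mp6g01520) at 0.903. Next were MpLCY-like1 (Mp7g05820) at 0.901, MpLOX10 at 0.900, MpABCF4 (Mp7g11210) at 0.894, MpGID1L5 (Mp8g06760) at 0.887 and the auxin influx carrier gene MpAUX1 (Mp1g29330) at 0.887. Each of these 8 genes had its lowest time mean at 24 h, as MpLOX14 did, and 5 of them their highest at 36 h. Their fitted swings ran from 0.32 for MpABCF4 to 1.45 for MpLOX10, all below that of MpLOX14. MpLOX16 was left out of this order by its mean of 5.04 CPM.

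The 4 genes most opposite to MpLOX14 were MpEDS5 (Mp1g04370) and the cinnamate 4-hydroxylase gene MpC4H1 (Mp6g00020), both at -0.93, MpPAPK1.1 (Mp4g14510) at -0.92 and the dirigent gene MpDIR27 (Mp5g00590) at -0.91. Each was highest at 24 h and lowest at 36 h, with peaks of the fitted curve between 1.82 and 2.51 h. Over the 8 time means in place of the libraries, 2 of the 8 genes most like MpLOX14 remained among the first 8, and 6 did with rank correlation, so which genes come first depends on the measure.

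**Figure D5:**
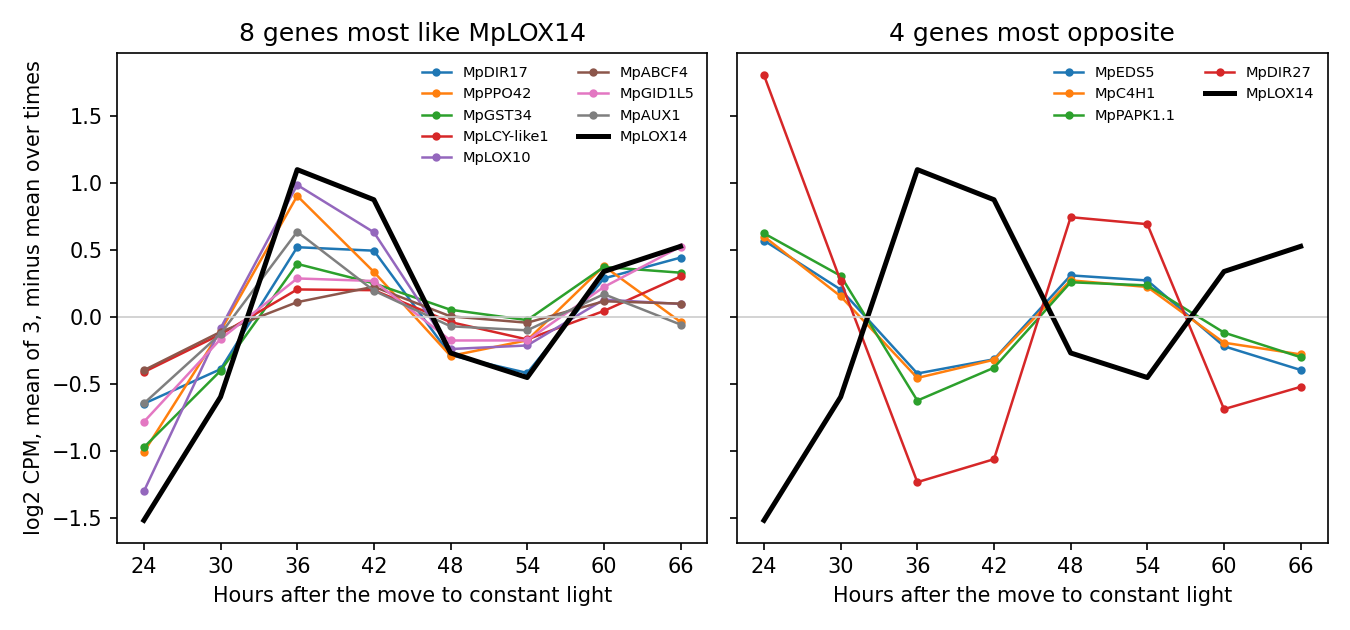
Time means of log2 CPM, each gene centred on its mean over the times (y axis), against hours after the move to constant light (x axis), for the 8 genes most like MpLOX14 (left) and the 4 most opposite (right), with MpLOX14 in black. Each of the 8 is lowest at 24 h, and each of the 4 is highest at 24 h and lowest at 36 h.

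The genes next to MpLOX14 in the RefSeq table of assembly MpTak2_v7.1 had smaller fitted swings, 0.29 to 0.56 against 1.94, a difference that was not tested. Mp8g12920, with a swing of 0.56 ± 0.11 (edgeR adjusted p = 0.0015), was highest at 12.0 h. It had 33.8 ± 4.1 CPM at 24 h (SD, n = 3) and 52.9 ± 7.1 at 36 h. Mp8g12940 was not called rhythmic (0.44 ± 0.17, adjusted p = 0.169, edgeR), and Mp8g12910 had 0.459 CPM on average. Mp8g12950 peaked at 0.151 h with a swing of 0.55 ± 0.10 (adjusted p = 0.0012, edgeR). From 24 to 48 h Mp8g12940 rose by 0.56 ± 0.16 (adjusted p = 0.0229, edgeR) and Mp8g12950 by 0.45 ± 0.11 (adjusted p = 0.0099), and from 36 to 60 h, where MpLOX14 fell, Mp8g12950 rose by 0.42 ± 0.11 (adjusted p = 0.0244). The correlation with MpLOX14 over the 24 libraries was 0.569 for Mp8g12920, 0.698 for Mp8g12940, 0.095 for Mp8g12910 and -0.14 for Mp8g12950. No coordinate is printed, because the sources used here do not name the build of the counts.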

How the data were processed

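The deposited table holds raw counts per gene for 24 libraries, made by the authors. Per the labels' protocols, each library took 100 ng of RNA through a stranded TruSeq kit that selects poly(A) tails. Aligner, counter, strand setting and build were not given in the sources used here. The members and lists were chosen with earlier results of these data known. Symbols were joined by locus tag from RefSeq assembly MpTak2_v7.1 (17641 of 20574 identifiers matched, 3091 with a symbol). The identifiers belong to another annotation version, so a renumbered gene would carry a wrong symbol.

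In R 4.3.3, edgeR 4.0.16 was run on these counts: filterByExpr (minimum count 10, 14414 genes kept), TMM, and quasi-likelihood F-tests with Benjamini-Hochberg adjustment over all tested genes and a threshold of 0.05. Rhythm calls tested a 24 h cosine and sine beside a linear term. Contrasts between times came from a model with 1 mean per time. Correlations used log2 CPM with a prior count of 2. Both fits were checked on simulated counts. DESeq2 1.42.0, limma 3.58.1, other filters, scalings, drifts and periods, a replicate block and single libraries left out were alternatives.

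The text names MpLOX14, its 4 neighbours, lipoxygenase and pathway genes called in either test or, for the former, among the 5 with the highest mean CPM, and the 8 genes most like and 4 most opposite MpLOX14 among genes with a symbol and a mean of 10 CPM or more. Other list members named with values were chosen after these were seen. Pathway genes were those with FAD, CYP74, COI1, JAZ, NINJA or PEX5 symbols. The other symbol stems looked for (AOS, AOC, OPR, HPL, MYCX, MYCY, ACX, DAD1, OPCL, KAT and JAR) matched no symbol of a counted gene, synonyms were not searched, and DOX and DOXC symbols were left out as another enzyme class. Sequences of MpLOX14 were not used here. Deviations of same-numbered libraries from their time means correlated at a median of 0.0019, against 0.0022 for differently numbered libraries at other times. On these medians the numbers were not taken as pairs. Single pairs of same-numbered libraries ran from -0.50 to 0.45, and 30 of 84 correlated above 0.1. The MpVg01240-rich libraries also shared their number, and whether some same-numbered libraries were handled together was not tested.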

Additional observations from a re-analysis of the deposited data

Results flagged for a closer look

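The change of MpLOX14 after a further 24 h differed between phases, taken on a period of 24 h. All 3 libraries of 48 h lay above those of 24 h, and all 3 of 60 h lay below those of 36 h. The difference between these changes, from 36 to 60 h minus from 24 to 48 h, was -2.0 ± 0.17 (SE) on the log2 scale (edgeR adjusted p = 3.9e-07). This contrast was chosen after the values were seen, and 1.80% of the tested genes were called in it. It equals the change from 48 to 60 h minus that from 24 to 36 h. The means of MpLOX14 were lowest at 24 h and highest at 36 h, and the gene was selected for its swing. Its p in this contrast is therefore not independent of the choice. Among the other 14 tested lipoxygenase genes the contrast was called for MpLOX16 (-4.75 ± 0.59, adjusted p = 1.0e-04, edgeR) and MpLOX10 (-1.92 ± 0.25, adjusted p = 1.3e-04). The matching contrast from 42 to 66 h minus from 30 to 54 h was not called for MpLOX14 (-0.49 ± 0.16, adjusted p = 0.167, edgeR) or for any other lipoxygenase gene, with 0.479% of the tested genes called.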

How the results depend on the processing

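The fitted swing of MpLOX14 was 1.72 with linear and day terms together and 1.73 with a 22 h period, against 1.94, and its peak moved to 16.6 h with a 22 h period and 12.5 h with a 26 h period, as hours modulo the period. With linear and day terms together the rhythm calls fell to 2 other lipoxygenase genes and 2 pathway genes. The share of all tested genes called in that setting was not taken, so the fall cannot be read as particular to these lists. The cause was not tested. Leaving out single libraries gave swings of 1.84 to 2.05 (the highest without replicate 1 of 48 h), peaks at 14.4 to 14.8 h, 4 to 6 lipoxygenase and 6 to 7 pathway genes called rhythmic, and 4 and 6 to 10 called between the days. The log2 differences of MpLOX14 then ran from 1.21 to 1.31 for 48 minus 24 h, -0.85 to -0.66 for 60 minus 36 h, 0.05 to 0.21 for 54 minus 30 h, -0.44 to -0.25 for 66 minus 42 h and 0.05 to 0.10 for the days. With the replicate block, 48 minus 24 h was 1.25, 60 minus 36 h was -0.76, the swing was 1.94, the counts of rhythm calls were 4 and 6, and no call of MpLOX14 changed. MpPEX5 lost its call between the days under the block (adjusted p = 0.0515, edgeR). No value of MpLOX14 changed sign in any setting. MpLOX14 had at least 1973 counts in each library, while MpLOX16 had 0 to 13 at 24 h and MpLOX6 191 and MpLOX15 44 in all libraries together.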
